A study of Mus musculus with 1 sample.

Results

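AMs (alveolar macrophages, the macrophages that live in the airspaces of the lung) with high RNA of chemokine and TNF genes were examined in single-cell RNA-seq data of lung AMs from 1 adult mouse. Each cell was scored by the mean natural log value of Tnf, Cxcl1, Cxcl2, Cxcl3 and Il1a, and the 120 cells with the highest score of 2055 were chosen. They are called chemokine-TNF AMs here, and the other 1935 cells are the comparison. The cells were chosen by the values of these 5 genes, so the 5 levels describe the choice and are left out of the gene counts below.

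The mouse carried floxed Hdac3 alleles (Hdac3fl/fl) without Cre and is labelled wild-type (WT), and it received no treatment that the labels name. The labels give an age between 8 and 12 weeks and a strain of FVB/NJ origin that was backcrossed to C57BL/6 for 10 generations. Lungs were digested with enzymes, CD45+CD11c+SiglecF+ cells were sorted, and 5000 of them were loaded on the 10x Genomics 3' assay, in which transcripts are counted as unique molecular identifiers (UMIs). A library of AMs that lack HDAC3 belongs to the same study and was not analysed here. With 1 library of 1 mouse there is no replicate, so no test was possible, and every interval below is a 95% exact interval that covers counting error only.

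Tissue macrophages sense microbes and damage through Toll-like and cytokine receptors, which release NF-kB from its inhibitors and activate MAP kinases and AP-1. The earliest targets are transcribed within minutes and include CXC chemokines, which recruit neutrophils through CXCR2, the cytokines TNF and IL-1α, and a set of inhibitors that end the signal. AMs are known for a restrained response at rest. The mRNAs of many of these genes are short-lived, so their level in a cell follows recent transcription.

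The score ran from 1.34 to 4.03 in the chemokine-TNF AMs, with a median of 1.77. The cell at rank 1 held 26 UMIs of Tnf, 46 of Cxcl1, 124 of Cxcl2, 4 of Cxcl3 and 11 of Il1a among 4245 UMIs. Just inside the limit, the cell at rank 120 scored 1.338 with 2, 2, 9, 0 and 1 UMIs of these genes in the same order. Just outside it, the cell at rank 121 scored 1.331 with 1, 0, 47, 2 and 0 UMIs. No gap separated these cells from the rest, and 501 cells held no UMI of any of the 5 genes.

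**Figure D1:**
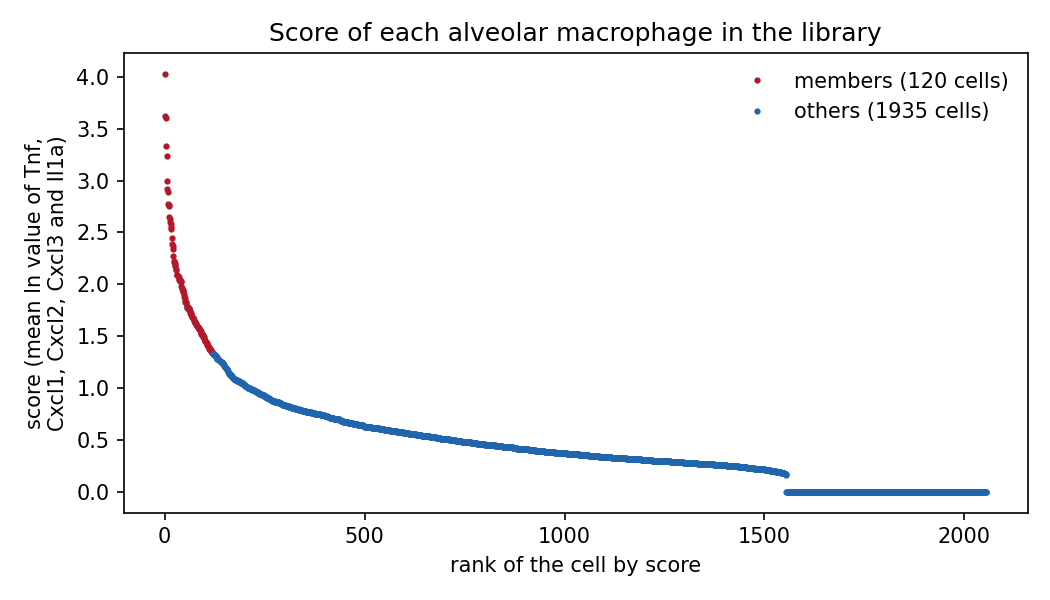
Score of each cell (mean natural log value of Tnf, Cxcl1, Cxcl2, Cxcl3 and Il1a, vertical axis) against its rank among the 2055 cells (horizontal axis), with the 120 chosen cells in red and the 1935 others in blue. The curve falls from 4.03 at rank 1 to 1.338 at rank 120 and goes on to 1.331 at rank 121 without a gap, and 501 cells lie at 0.

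The 5 genes were not all found in each chosen cell. All 5 were found in 7 cells, 42 cells held 4, 60 held 3 and 11 held 2, and the most frequent combination was Tnf, Cxcl1, Cxcl2 and Il1a in 31 cells. Cxcl2, a neutrophil-recruiting chemokine, was found in all 120 cells, with 10.6 to 311 UMIs per 10000 and a median of 77.6. Tnf was found in 84.2% of them against 15.8% of the others, and Cxcl1, another CXCR2 ligand, in 62.5% against 6.46%. Il1a, which encodes the alarm cytokine IL-1α, was found in 65.8% against 13.4%. Cxcl3 was found in 25.0% against 4.60%, and a single cell held 27 of its 162 UMIs. The 5 genes together took 1.21% of the UMIs of the chemokine-TNF AMs and 0.0836% of those of the other cells.

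To see whether the genes go together in the same cells, each was compared between cells chosen without it. When the score left out Tnf, the 120 highest cells had 9.70 Tnf UMIs per 10000 and the others 0.725, a ratio of 13.4 (interval 11.8 to 15.2), and Tnf was found in 66.7% of them (57.5% to 75.0%) and in 16.9% of the others (15.3% to 18.6%). For the other genes, each scored without itself, the ratio was 21.3 for Cxcl1, 10.6 for Cxcl2, 9.81 for Cxcl3 and 7.64 for Il1a. A further choice used a random part of the UMIs of each cell and read the genes in the UMIs left out. The ratios were then 19.0 for Tnf, 38.3 for Cxcl1, 13.7 for Cxcl2, 16.1 for Cxcl3 and 7.76 for Il1a. All 5 genes were higher in the chosen cells also in the UMIs left out. Those UMIs come from the same cells and genes as the choice, so these ratios describe the choice and are not findings.

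Cell quality was similar in both groups, and depth was somewhat greater in the chosen cells. The chemokine-TNF AMs had a median of 3721.5 UMIs (1172 to 7756) and 1549 genes, the others 3247 UMIs (1143 to 8603) and 1448 genes, and the 501 cells without a UMI of the 5 genes had a median of 2690 UMIs. The median share of mitochondrial UMIs was 2.99% in the chosen cells and 3.22% in the others, and 19 chosen cells (15.8%) and 365 others (18.9%) were above 5%, although the methods describe a filter at that value. Shares of cells are therefore also given after each cell was thinned to 2000 UMIs, which kept 107 chosen cells and 1649 others and left out 13 and 286 shallower ones. No doublet caller was run. The sort was gated on AMs, so the share that free RNA gives was read from genes of other cell types. Sftpc, the surfactant gene of alveolar type 2 cells, was found in 9.17% of the chosen cells and 6.72% of the others (1.87% and 3.88% when thinned), and Jchain, a plasma cell gene, in 5.00% and 3.10%.

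Beyond the 5 genes, the chemokine-TNF AMs were marked by inhibitors of NF-kB, immediate-early factors, IL-6 and 2 ligands of the EGF receptor. Of 4296 genes with at least 200 UMIs over all cells, 42 (0.978%) had at least 2 times the UMIs per 10000 of the other cells and 78 (1.82%) at most 0.5 times. The median ratio over the 4296 genes was 0.943. Against the 120 cells next in rank, 20 of the 42 were still at a ratio of at least 2. All 78 lower genes had fewer than 20 UMIs in the chosen cells. For the 42 higher genes, at least 20 UMIs follow from the minimum of 200 and the ratio of 2. Among the 1158 genes with at least 1000 UMIs, 20 were higher and 1 was lower. These ratios come from the same cells as the choice and are given as a description.

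**Figure D2:**
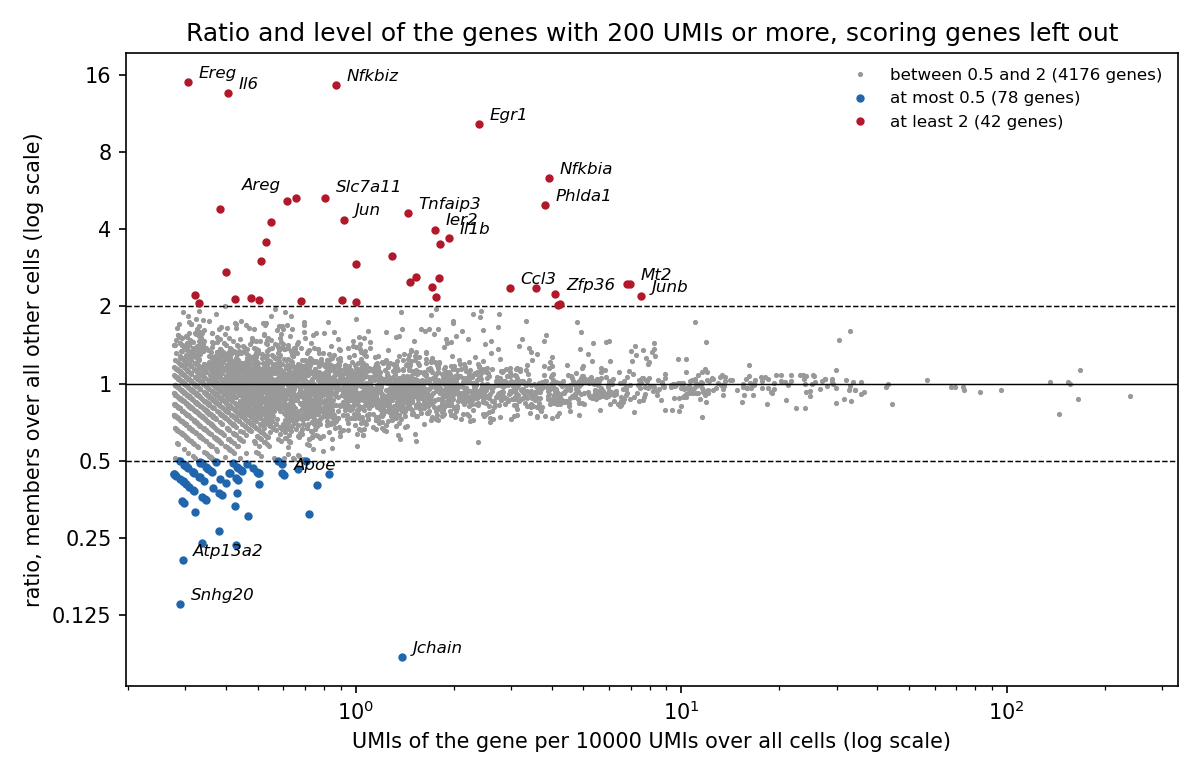
Ratio of UMIs per 10000 in the 120 chemokine-TNF AMs over that in the 1935 other cells (vertical axis, log scale) against the level of the gene over all cells (horizontal axis, log scale) for 4296 genes, with ratios of at least 2 in red, at most 0.5 in blue and the rest in grey. Ereg, Nfkbiz, Il6 and Egr1 stand above a ratio of 8, and the genes below 0.5 lie at the low end of the levels except Jchain.

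Regulators of NF-kB were among the genes with the highest ratios. Nfkbiz encodes IκBζ, a nuclear cofactor that NF-kB needs to switch on Il6 and other secondary genes. It had 318 UMIs in the chosen cells and 313 in the other 1935, which is 6.75 against 0.464 per 10000 and a ratio of 14.6 (12.4 to 17.1). It was found in 68.3% of the chosen cells and 12.1% of the others (64.5% and 7.70% when thinned). Nfkbia encodes IκBα, the inhibitor that holds NF-kB in the cytoplasm, and had 18.5 UMIs per 10000 against 2.91, a ratio of 6.34 (5.85 to 6.88). It was found in 95.0% of the chosen cells and 50.7% of the others. Tnfaip3, which encodes the ubiquitin-editing inhibitor A20, had 255 UMIs in the chosen cells and a ratio of 4.62 (4.00 to 5.33), and Nfkbid, which encodes the IκB family member IκBNS, had a ratio of 4.78 (3.59 to 6.31).

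The subunits of NF-kB themselves differed less. The ratio was 1.54 for Nfkb1 (1.23 to 1.90), 1.63 for Rel (1.34 to 1.96) and 1.30 for Rela (0.808 to 1.99), and the kinase genes Ikbkb and Chuk had ratios of 0.827 and 0.739. Of 19 NF-kB genes that could be tested, 6 were at least 2 times higher, 0 were lower and the median ratio was 1.30. The remaining pair of the 6, Nfkbib (IκBβ) at 2.06 and Cflar (the caspase-8 inhibitor cFLIP) at 2.11, lay close to the limit. The deubiquitinase gene Cyld, also an inhibitor, was at 0.970, and all tested subunits and kinases of the list were below 2. The share of higher genes over all genes tested was 0.978%, and the other lists below read against the same value.

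**Figure D3:**
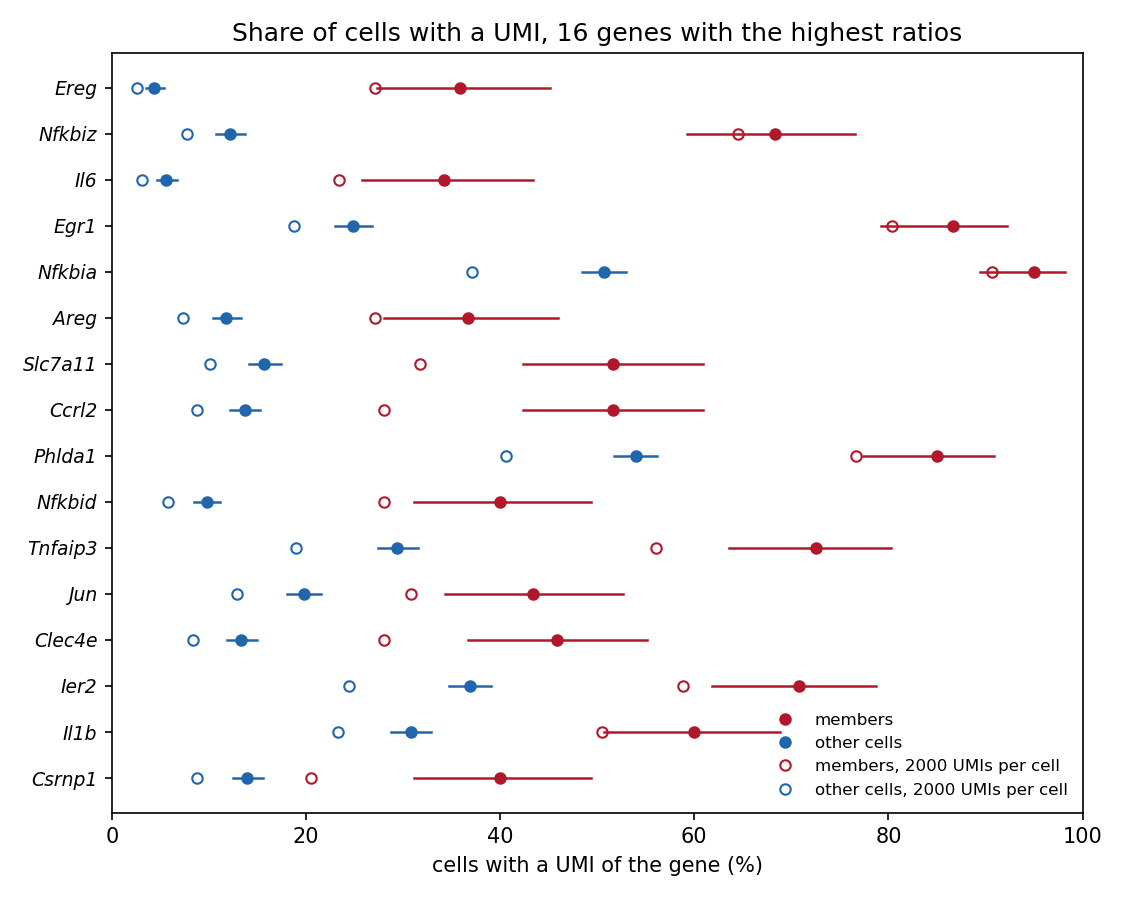
Share of cells with a UMI (horizontal axis, percent) for the 16 genes with the highest ratios, in the 120 chemokine-TNF AMs (red) and the 1935 other cells (blue). Filled points are all UMIs with lines for 95% exact binomial intervals, open points are cells thinned to 2000 UMIs. Each red point lies to the right of the blue point of the same kind, and Nfkbia was found in 95.0% of the chosen cells against 50.7%.

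The promoters of chemokine genes and of the NF-kB inhibitors are shown because these genes were high in the same cells. RefSeq promoters (GRCm38.p6, 250 bases before to 50 after each start) were searched on both strands for the NF-kB consensus site. It occurred in 3 of the 5 scoring genes, Cxcl1, Cxcl2 and Cxcl3, and in 9 of the 34 higher genes that have an entry (26.5%), against 277 of 3489 tested genes (7.94%) and 6.55% of all 27025 genes in the table. Ereg, Nfkbiz, Egr1, Phlda1, Ier2, Kdm6b and Malt1 are among those with no entry. The AP-1 site TGANTCA occurred in 5 of the 34 higher genes (14.7%) against 6.39% of tested genes, and the cAMP response element TGACGTCA in 4 (11.8%) against 4.13%. The TATA sequence TATAAA occurred in 9 (26.5%) against 8.86%. These motifs did not overlap one another in the windows shown. Older symbols were matched through RefSeq synonyms. A match is a string of letters and was not tested as a binding site.

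The 110 bases before the RefSeq start are printed 5′ to 3′ on the strand of the gene. Capitals mark the NF-kB consensus site, or TGACGTCA in Areg. The windows lie at chr5:90891135-90891244 (Cxcl1, plus strand), chr5:90903789-90903898 (Cxcl2, plus), chr5:90785991-90786100 (Cxcl3, plus), chr5:30013004-30013113 (Il6, plus), chr12:55492648-55492757 (Nfkbia, minus), chr10:19015411-19015520 (Tnfaip3, minus) and chr5:91139489-91139598 (Areg, plus).
Cxcl1: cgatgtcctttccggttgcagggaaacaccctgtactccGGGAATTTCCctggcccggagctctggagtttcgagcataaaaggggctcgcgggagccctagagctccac
Cxcl2: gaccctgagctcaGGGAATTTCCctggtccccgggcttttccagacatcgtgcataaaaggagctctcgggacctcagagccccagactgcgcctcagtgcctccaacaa
Cxcl3: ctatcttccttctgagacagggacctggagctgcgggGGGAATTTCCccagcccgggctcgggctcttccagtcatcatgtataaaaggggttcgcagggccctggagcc
Il6: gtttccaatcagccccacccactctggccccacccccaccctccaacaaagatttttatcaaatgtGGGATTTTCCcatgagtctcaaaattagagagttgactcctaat
Nfkbia: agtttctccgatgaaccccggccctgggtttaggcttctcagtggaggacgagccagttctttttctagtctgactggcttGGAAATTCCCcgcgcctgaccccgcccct
Tnfaip3: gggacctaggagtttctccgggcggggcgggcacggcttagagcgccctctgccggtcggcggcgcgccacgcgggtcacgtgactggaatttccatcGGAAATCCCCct
Areg: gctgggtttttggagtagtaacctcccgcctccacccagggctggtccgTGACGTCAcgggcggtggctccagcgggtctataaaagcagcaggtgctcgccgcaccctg
The site lies 71 to 62 bases before the start in Cxcl1, 97 to 88 in Cxcl2 and 73 to 64 in Cxcl3, with the same 10 letters in all 3 chemokine genes. In Il6 it lies 44 to 35 bases before the start. In Nfkbia, 29 to 20 bases before the start, and in Tnfaip3, 12 to 3 bases before it, the site is on the opposite strand. All distances are from the RefSeq start, which can differ from the GENCODE gene positions given below. The windows of Cxcl1 and Cxcl2 end inside these genes as GENCODE places them. GENCODE places Tnfaip3 at chr10:19000910-19015657, so its window and site lie inside the gene and not before that start.

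Immediate-early transcription factors were higher for some members and near the level of the other cells for others. Egr1, a zinc-finger factor induced by MAP kinase signals, had 719 UMIs in the chosen cells and 1008 in the others, 15.3 against 1.49 per 10000 and a ratio of 10.2 (9.28 to 11.3). Its value per cell ran from 0 to 87.2 with a median of 11.8 in the chosen cells, and from 0 to 42.6 with a median of 0 in the others. Jun, a subunit of AP-1, had a ratio of 4.36 (3.62 to 5.23) and was found in 43.3% of the chosen cells and 19.7% of the others. Ier2 had a ratio of 3.98 and Ier3, a modulator of NF-kB and survival, 2.93, while Klf2 at 2.73, Junb at 2.20 and the antiproliferative gene Btg2 at 2.03 were closer to the limit. Of 28 genes of this list tested, 7 were higher and 0 lower, with a median ratio of 1.29.

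Enzyme digestion of tissue is known to induce AP-1 genes, and the lungs were digested before the sort. Fos, the partner of Jun, had 10.5 UMIs per 10000 in the chosen cells and 8.16 in the others, a ratio of 1.28 (1.17 to 1.41), and was found in 79.2% and 82.3% of cells. Fosb had a ratio of 1.07 (0.906 to 1.26), Atf3 of 0.757 (0.588 to 0.962), Nr4a1 of 1.30 (1.15 to 1.46) and Dusp1, a MAP kinase phosphatase, of 1.33 (1.21 to 1.46). None of 12 heat shock genes was higher or lower by 2 times, and their median ratio was 1.13. Of the 28 immediate-early genes tested, 7 were higher, among them Egr1, Jun, Ier2, Junb and Btg2, whereas Fos, Fosb and Atf3 were not. The part of digestion in the higher genes was not tested.

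MAP kinase feedback genes were near the background. Of 16 tested, only Gadd45b, a stress gene that restrains JNK signalling, was higher, at 3.00 (2.25 to 3.94), and the median ratio was 1.04. Dusp5 was at 1.05, Dusp6 at 0.805 and the kinase genes Mapk3 and Mapk14 at 0.854 and 0.759. Csrnp1, an AXIN1-induced nuclear gene outside this list, had a ratio of 3.56 (2.73 to 4.59).

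Cytokine genes beyond the score were higher as a group of named members rather than throughout. Il6, which encodes the acute-phase cytokine IL-6, had 143 UMIs in the chosen cells and 151 in the others, 3.04 against 0.224 per 10000 and a ratio of 13.6 (10.7 to 17.2). It was found in 41 chosen cells, or 34.2% (25.8% to 43.4%), and in 5.58% of the others (4.60% to 6.70%). Il1b, which encodes IL-1β, had 6.07 UMIs per 10000 against 1.65 and a ratio of 3.69 (3.23 to 4.20). Il1rn, which encodes the antagonist of the IL-1 receptor, was higher too at 2.17 (1.83 to 2.55). Of 10 cytokine and growth factor genes tested, 5 were higher and 0 lower, and the median ratio was 1.91.

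Among the remaining cytokine and growth factor genes tested, only Tgfb1 had a ratio below 1. Il18, an IL-1 family cytokine that resting AMs express, had 618 UMIs in the chosen cells and 8781 in the others, a ratio of UMIs per 10000 of 1.01 (0.929 to 1.10), and was found in 95.0% and 92.9% of cells. Tgfb1 had a ratio of 0.852 and Spp1, which encodes osteopontin, 1.06. Osm, which encodes oncostatin M, had a ratio of 1.66 (1.43 to 1.92). Il23a, the p19 subunit of IL-23, had 12 UMIs in 5 chosen cells and 0 in the others. Against a floor of 3 counts over the other cells the ratio was 57.4, which leaves out counting error in the 12 UMIs. Vegfa had 1 UMI in the chosen cells and 136 in the others, a ratio of 0.105 with an interval of 0.00265 to 0.597.

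The EGF receptor ligands epiregulin and amphiregulin stood beside the cytokines. Ereg had the highest ratio of the 4296 genes, 15.0 (11.4 to 19.7), from 113 UMIs in the chosen cells and 108 in the others, and was found in 35.8% against 4.34% of cells. Areg, a growth factor linked to epithelial repair, had 128 and 347 UMIs, a ratio of 5.29 (4.28 to 6.50) and a share of 36.7% against 11.8%. In each case most of the chosen cells held no UMI.

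Chemokine genes outside the score had ratios on both sides of 1. Ccl3, a chemokine for monocytes and lymphocytes, had 6.48 UMIs per 10000 against 2.74 and a ratio of 2.36 (2.08 to 2.67). Ccl4 had a ratio of 1.37 (1.06 to 1.76), Ccl2 of 1.47 (1.02 to 2.08) and Ccl9 of 1.63 (1.35 to 1.96). Ccl6, the chemokine that AMs express constitutively, had 90.8 UMIs per 10000 against 96.1, a ratio of 0.944. Ccrl2, an atypical chemokine receptor induced by NF-kB, had a ratio of 5.13 (4.12 to 6.36), so that 2 of 6 genes of the list were higher, with a median of 1.55. Cxcl10, an interferon-induced chemokine below the minimum of 200 UMIs, had 55 UMIs in 17.5% of the chosen cells and 36 UMIs in 0.775% of the others, a ratio of 21.9 (14.1 to 34.3). Of other interferon-induced genes, Bst2 had a ratio of 1.17, and Isg15 had 7 and 80 UMIs.

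Cxcl3, Cxcl1, Cxcl2, Ereg and Areg lie in that order on the plus strand of chromosome 5 (GRCm38). Cxcl3 lies at chr5:90786103-90789600, Cxcl1 at chr5:90891241-90893115, Cxcl2 at chr5:90903871-90905938, Ereg at chr5:91074622-91093646 and Areg at chr5:91139599-91148432. The genes between and beside them had few UMIs. Cxcl5 and Ppbp were not among the genes with values, so no level can be read for them. Mthfd2l, a mitochondrial folate enzyme gene between Cxcl2 and Ereg, had 9 UMIs in the chosen cells and 103 in the others, a ratio of 1.25 (0.557 to 2.47). Pf4 had 6 and 56 UMIs, a ratio of 1.54 (0.541 to 3.56). Epgn, a further EGF family gene beside Ereg, had 0 and 3 UMIs and Cxcl15 had 0 and 7, too few to show a level. At the Tnf locus (chr17:35199381-35202007, minus strand), the neighbour Ltb had 0 and 9 UMIs and Lst1 had 36 and 532, a ratio of 0.970. Aif1 had 0 and 16 UMIs, Nfkbil1 4 and 112 and Gm16181 3 and 18, the last a ratio of 2.39 (0.451 to 8.19). The transcript ends (last 300 bases) of Cxcl1, Cxcl2, Cxcl3, Tnf, Il6 and Nfkbiz held no run of 98 bases that a transcript of another gene also held.

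Many mRNAs of cytokines carry AU-rich elements in the 3' UTR, which bind decay factors such as tristetraprolin, the product of Zfp36. The AU-rich letters TTATTTATT occurred in the longest annotated 3' UTR of 4 of the 5 scoring genes, of 10 of the 42 higher genes (23.8%) and of 314 of 4120 tested genes (7.62%). The median length of the 3' UTR was 1233.5 bases in the higher genes and 1347.5 in the tested genes. Among genes with a 3' UTR of 704 to 1853.25 bases, 4 of 20 higher genes (20.0%) and 6.10% of 1296 tested genes had the letters. Windows of 30 bases from 4 of these genes, with TTATTTATT in capitals, show the overlapping copies in Tnf and the lone copy in Areg.
Tnf: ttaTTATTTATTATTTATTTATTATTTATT
Cxcl1: gggtcctatttatttatgtatTTATTTATT
Cxcl2: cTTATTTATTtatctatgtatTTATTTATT
Areg: aatttatttaatatttaagtgTTATTTATT
The windows start at base 435 of the 3' UTR in Tnf, 81 in Cxcl1, 881 in Cxcl2 and 192 in Areg. Tnf holds 5 copies in all, Cxcl2 4 and Cxcl1 2. Nfkbia, Phlda1, Tnfaip3, Csrnp1 and Zfp36 itself hold 1 each, and Il6 and Nfkbiz hold 0. Zfp36 had 8.49 UMIs per 10000 in the chosen cells and 3.80 in the others, a ratio of 2.23 (2.00 to 2.48). Hnrnpd, which encodes the AU-binding protein AUF1, had 15 and 535 UMIs and a ratio of 0.402 (0.223 to 0.669). Of 10 decay and cytokine signal inhibitor genes tested, 1 was higher and 1 lower, and the median was 0.975.

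Genes of Toll-like and cytokine receptors were near the level of the other cells. Tlr2 had a ratio of 1.15, Tlr4 0.712, Tlr7 1.02 and Myd88, their shared adaptor, 1.22, and none of 18 cytokine and chemokine receptor genes tested was higher or lower by 2 times (median 1.01). The TNF receptor genes Tnfrsf1a and Tnfrsf1b had ratios of 1.31 and 1.13. In the list of 15 innate sensors tested, the higher genes were Clec4e (Mincle, a receptor for microbial glycolipids), at 4.26 (3.34 to 5.41), and Nlrp3, the sensor of the inflammasome, at 2.61 (2.20 to 3.07). Pycard and Casp1, the partners of NLRP3, had ratios of 1.10 and 0.939.

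Among genes of survival, metabolism and stress, named members were higher. Bcl2l11, which encodes the death activator BIM, had a ratio of 2.58 (2.21 to 3.00), whereas Mcl1 had 1.29 and Bax 1.02. Of 10 survival and death genes tested, 2 were higher and 0 lower, and the median ratio was 1.26. Bcl2a1a, Bcl2a1b and Bcl2a1d had ratios between 1.11 and 1.36, and these values are uncertain because up to 81.8% of the 98-base runs near their 3' ends are shared between the copies. Slc7a11, the cystine transporter that feeds glutathione synthesis, had 157 and 426 UMIs and a ratio of 5.28 (4.37 to 6.36). Mt2, a metallothionein, was at 2.43 (2.25 to 2.63) and Mt1 at 1.61 (1.54 to 1.68). The antioxidant genes Sod2 and Hmox1 were at 1.94 and 1.45. Of 17 metallothionein, heme, iron and antioxidant genes tested, 2 were higher and 0 lower, and the median ratio was 1.43. While 13 of the 17 were above 1, Gclm was at 0.696, Srxn1 at 0.812, Prdx1 at 0.840 and Cat at 0.970. None of 13 glycolysis genes tested was higher (median 0.922), with Hk2 at 1.63 and Ldha at 1.07. Phlda1 at 4.94 (4.53 to 5.39) and Chka, a choline kinase, at 3.15 (2.65 to 3.73) belonged to no list.

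**Figure D4:**
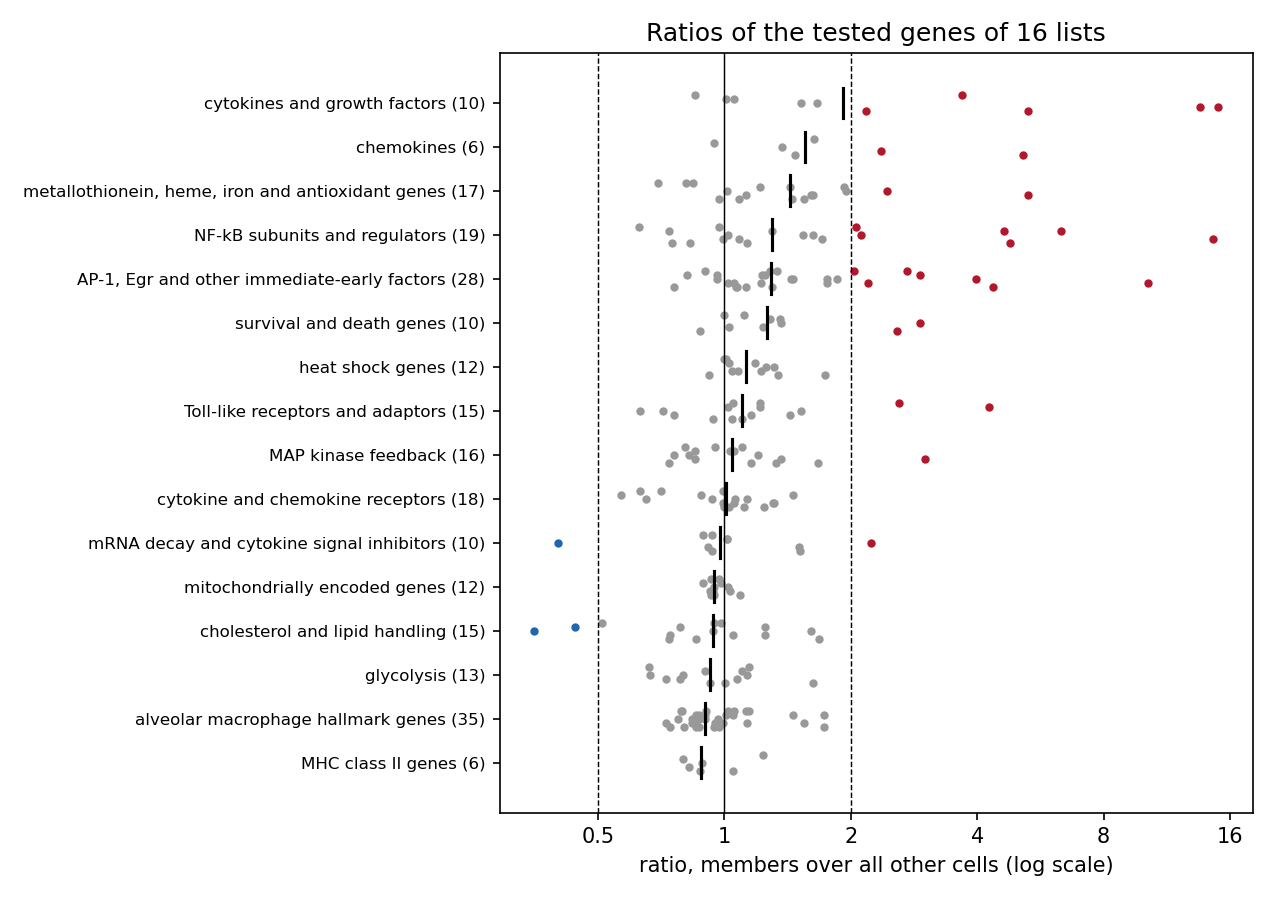
Ratio of UMIs per 10000 in the chemokine-TNF AMs over that in the other cells (horizontal axis, log scale) for the tested genes of 16 lists, with the number of genes in brackets. Red points are ratios of at least 2, blue points at most 0.5, black bars the medians, which run from 1.91 for cytokines and growth factors to 0.880 for MHC class II genes.

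The chosen cells kept the profile of AMs. None of 35 hallmark genes tested was higher or lower by 2 times, and their median ratio was 0.901. Siglecf and Itgax (CD11c), the genes of the sort, had ratios of 0.840 (0.643 to 1.08) and 0.900 (0.750 to 1.07), and Chil3 had 137 UMIs per 10000 in the chosen cells and 136 in the others. Pparg, the factor that sets AM identity, had 1.32 UMIs per 10000 against 1.16, a ratio of 1.13 (0.860 to 1.47). At the ends of the list stood Plet1 and Olr1, both at 1.73, Fabp4 at 1.55 and Car4 at 1.45, and on the other side Abcg1, a cholesterol exporter, at 0.742 (0.670 to 0.819) and Cd68 at 0.728. MHC class II genes, cell cycle genes and mitochondrially encoded genes had medians of 0.880, 1.11 and 0.944, with no gene called in either direction.

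Genes that were lower in the chemokine-TNF AMs rested on few UMIs. The 78 lower genes had between 0.0860 and 0.499 of the level of the other cells, with a median of 0.443 and a median of 253.5 UMIs over all cells. Apoe, which encodes an apolipoprotein of macrophages, had 13 UMIs in the chosen cells and 422 in the others, a ratio of 0.442 (0.233 to 0.764), and Apoc1 had 6 and 244, a ratio of 0.353 (0.128 to 0.779). Id1, a target of BMP signals, had 7 and 330 UMIs, a ratio of 0.304 (0.121 to 0.634), and Sema4b had 11 and 509, a ratio of 0.310 (0.154 to 0.559). The smallest ratio, 0.0860 for Jchain, came from 1 cell outside the chosen ones with 940 of its 1006 UMIs, and it was 1.43 without that cell.

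Levels followed the score also below the chosen cells. In the 120 cells next in rank, Nfkbiz had 1.52 UMIs per 10000 against 6.75 in the chosen cells and 0.288 in cells without a UMI of the 5 genes. For Egr1 the levels were 15.3 in the chosen cells, 5.06 in the next 120, 2.34 at ranks 241 to 480, 1.12 at the lower ranks and 0.898 in cells at a score of 0. Nfkbia went from 18.5 to 7.26, 3.61, 2.54 and 2.15 over the same groups, and Il6 from 3.04 to 0.572, 0.433, 0.188 and 0.0891. Ccl3 spread more evenly, with 6.48, 4.69, 4.44, 2.56 and 1.64. Fos had 10.5 and 11.0 in the highest 2 groups and 7.07 in the lowest, and Pparg ran between 0.924 and 1.32 without order. Chka had 3.57, 2.02, 1.29, 1.03 and 1.04 over the same groups.

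**Figure D5:**
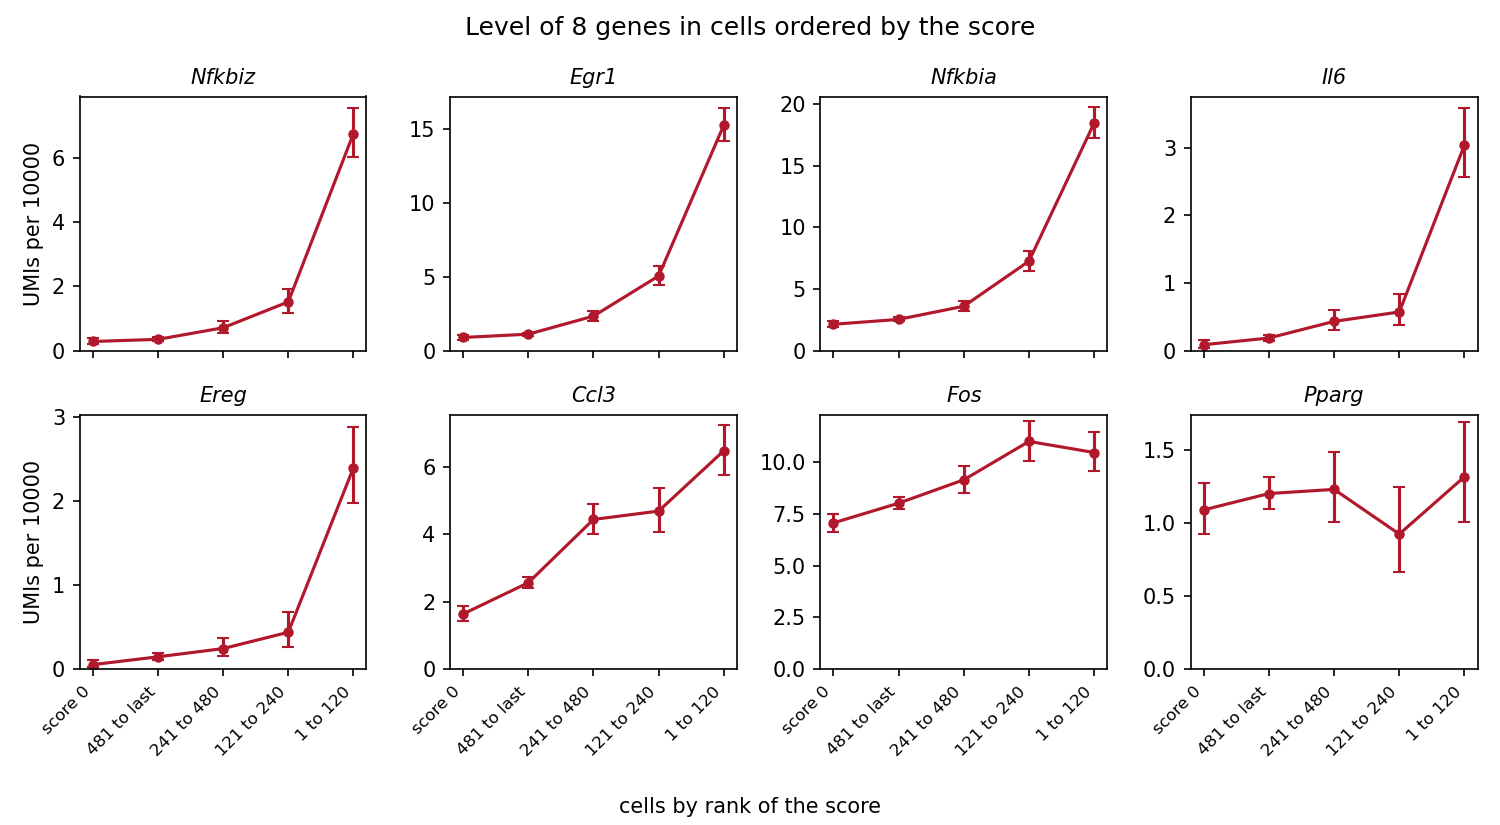
UMIs per 10000 (vertical axes, from 0) of 8 genes in cells grouped by rank of the score, from cells at a score of 0 (left) to ranks 1 to 120 (right), with 95% exact Poisson intervals. Nfkbiz, Egr1, Nfkbia, Il6 and Ereg climb steeply into the last group, Ccl3 climbs evenly, Fos goes from 7.07 to 10.5, and Pparg runs between 0.924 and 1.32 without order.

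The higher genes were spread over most of the chosen cells. After thinning to 2000 UMIs, a chosen cell held between 5 and 30 of the 42 higher genes, with a median of 19 (quartiles 16 and 22), and another cell between 1 and 24, with a median of 9. The next 120 cells had a median of 13 and the cells at a score of 0 a median of 8. Of 107 chosen cells kept, 105 were above the median of the other cells and 11 above all of them, and 13 of 1649 other cells reached the median of the chosen ones. The genes were called in these same cells, so the counts show how evenly the difference was spread and are no support for it.

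The chosen cells also differed among themselves. The 41 cells with a UMI of Il6 had a median of 4711 UMIs against 3360 in the 79 without, so depth moved with Il6 and only levels per 10000 are compared. Cells with Il6 had 14.6 UMIs of Cxcl1 per 10000 against 5.40 in those without. They had 14.9 of Tnf against 9.71 and 3.35 of Ereg against 1.72. Il1a was at 3.56 (2.77 to 4.49) against 4.31 (3.56 to 5.16) and Abcg1 at 8.63 against 8.87, with overlapping intervals. The cells were chosen on the mean of the 5 scoring genes, so levels of these genes among the chosen cells describe the choice and are not findings. The 104 cells with Egr1 had 7.59 UMIs of Nfkbiz per 10000, 13.3 of Tnf and 98.3 of Cxcl2, and the 16 without had 0.854, 1.88 and 49.3, at medians of 3761.5 and 3654 UMIs per cell. Levels of Cxcl1 were closer, with 9.73 and 5.80, and so were those of Fos, with 10.7 and 8.88. Cells with Cxcl10 (21 of 120) had 7.33 UMIs of Il6 per 10000 against 1.92 in those without.

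Markers of other cell types were counted as sums over each list, and their part in the ratios above was not tested. Of 14 neutrophil markers 6 were measured, with 45 UMIs in the chosen cells and 744 in the others, or 0.956 against 1.10 per 10000 (0 to 8.08 per cell against 0 to 130), and S100a8 had 16 and 262. Of 9 monocyte markers 5 were measured, with 8 and 70 UMIs, or 0.170 per 10000 in the chosen cells (0.0733 to 0.335) against 0.104 (0.0808 to 0.131), and they were found in 6.67% against 2.64% of cells. Ly6c1 was at 0 in the chosen cells. Of 9 dendritic cell markers 4 were measured, with 5 and 141 UMIs, or 0.106 against 0.209 per 10000, and Zbtb46, Ccr7 and Clec9a were at 0 in the chosen cells. Of 12 interstitial macrophage markers 6 were measured, with 41 and 830 UMIs, or 0.871 against 1.23 per 10000, and C1qa, C1qb and Cx3cr1 were at 0. Lung epithelial and endothelial markers (11 of 12 measured) had 3.55 UMIs per 10000 in the chosen cells and 3.58 in the others, with 0 to 26.5 per cell and 0 to 34.2. Epcam gave 141 of these 167 UMIs in the chosen cells and 2037 of 2414 in the others. It was found in 62.5% and 57.8% of cells, so the sum says little about the other markers. Sftpb, Sftpd, Pecam1 and Cdh5 were at 0 in the chosen cells. Lymphocyte and plasma cell markers (3 of 13 measured) had 7 UMIs in the chosen cells and 1021 in the others, of which 940 lay in the cell with Jchain.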

How the data were processed

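Lung AMs of 1 Hdac3fl/fl mouse without Cre were sorted and profiled with the 10x Genomics 3' assay. The authors used Cell Ranger with mm10 to count UMIs, describe cell filters by number of genes and mitochondrial share, and deposited natural log values of 1 plus UMIs per 10000 (LogNormalize of Seurat), and a scaled score after regression on depth and mitochondrial share. Reads were not reprocessed.

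UMI counts were recovered from the steps of the deposited natural log values: 100% of values were whole within 0.01, 7222978 UMIs over 11918 genes in 2055 cells, with 1143 to 8603 per cell. UMIs were summed over chosen and other cells and divided by all UMIs of each group. Ratios have conditional binomial intervals, shares of cells Clopper-Pearson intervals and levels Poisson intervals, all exact at 95%, since no test is possible with 1 library. Genes with fewer than 200 UMIs and the 5 scoring genes were left out of the counts of genes at a ratio of at least 2 or at most 0.5. Named genes were the scoring genes, the 20 highest and 12 lowest ratios, and the members of each list that were called or had most UMIs, a few of which are not reported here. Genes outside this rule, such as Il18, Vegfa and the neighbours on chromosomes 5 and 17, were named after their values were seen. The cells, the 24 gene lists and the alternatives were chosen with earlier results of these data known. The sequences are from RefSeq (GRCm38.p6) and GENCODE M21 of the same build. Python 3.11.15, numpy 2.4.6, pandas 2.3.3 and scipy 1.17.1 were used, and the steps were tested on simulated data.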

Additional observations from a re-analysis of the deposited data

How the results depend on the processing

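The main counts were 42 higher and 78 lower genes. They were 150 and 314 at a ratio of 1.5, 80 and 247 with 60 chosen cells, and 26 and 10 with 240, all of 4296 genes tested. With a minimum of 50 UMIs they were 124 and 522 of 7765 genes tested. With no minimum they were 804 and 740 of 10009. Against the next 120 cells 82 of 4296 genes were higher, of which only 20 were among the 42. Against cells without a UMI of the 5 genes 64 of 4296 were, with 40 of the 42. Thinning to 2000 UMIs gave 244 lower genes, and choosing cells on a random part of the UMIs gave 200. All other alternatives, among them scores without 1 of the genes, summed UMIs, scaled values, cells under 5% mitochondrial UMIs and cells weighted the same, kept both counts within 1.5 times. The lower genes themselves changed more than their count. Summed UMIs kept 39 of the 42 higher genes but 33 of the 78 lower ones. Scores without Tnf and without Cxcl1 each kept 48 of the 78, and leaving the scoring genes out of the totals kept 73. Of 31 higher genes that the rule for named genes took, 16 kept a ratio of at least 2 under all 19 settings, Ereg between 5.45 and 43.7, Nfkbiz between 4.45 and 23.5 and Egr1 between 3.02 and 17.0. Cflar and Nfkbib kept it under 12 and Btg2 under 13. Of the ratios of named genes, 1172 alternatives moved less than the counting interval, 173 moved more and 3 reversed: Jchain was at 2.89 against the next 120 cells, 1.16 against cells without a UMI of the 5 genes and 1.43 without its highest cell. Leaving out the highest-scoring cell, or the highest cell of each gene, was added after seeing the data and gave 42 and 78, and 39 and 74 genes. The score alternatives shared 93 to 111 of the 120 cells. No paired analysis was possible because there is 1 library. In a library of this depth a gene under 200 UMIs has fewer than 20 in the chosen cells at equal levels, which limits what could be seen of lower levels in such genes.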

Other observations

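Pairs of genes were also found together at the same depth in all cells. After thinning to 2000 UMIs, 23.6% of 72 cells with Ereg held Areg (14.4% to 35.1%) against 7.84% of 1684 cells without it (6.60% to 9.23%). Of 76 cells with Il6, 17.1% held Ereg (9.43% to 27.5%) and 7.89% held Cxcl10 (2.95% to 16.4%), against 3.51% and 1.01% of 1680 cells without Il6. Of 196 cells with Nfkbiz, 53.1% held Egr1 (45.8% to 60.2%) and 37.2% held Tnfaip3 (30.5% to 44.4%), against 18.7% and 19.2% of 1560 cells without it. Of 125 cells with Cxcl1, 31.2% held Tnf (23.2% to 40.1%) against 11.5% of the rest. Cxcl3 was held by 7.20% of them (3.35% to 13.2%) against 3.74% (2.87% to 4.78%), and these intervals overlap. Cxcl1, Tnf and Cxcl3 are scoring genes and the cells counted include the chosen ones. Their shares are therefore given as a description and are not findings. The intervals are exact binomial intervals and cover counting of cells only. All of these cells come from 1 mouse, so the shares carry no error between mice.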
